A study of Arabidopsis thaliana with 10 samples.

Results

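Xylan side-group and acetylation genes were followed by their transcript levels in the inflorescence stem of Arabidopsis thaliana. The set held 10 genes of the 23615 listed per library, taken by locus and not by a rule on measured values. Earlier results of these data were known when they were chosen. They were the glucuronosyltransferase genes GUX1 (AT3G18660) and GUX2 (AT4G33330), the methyltransferase genes GXMT1 (AT1G33800, also called GXM1), GXM2 (AT4G09990) and GXM3 (AT1G09610), the acetyltransferase gene ESK1 (AT3G55990, also called TBL29), and the REDUCED WALL ACETYLATION genes RWA1 (AT5G46340), RWA2 (AT3G06550), RWA3 (AT2G34410) and RWA4 (AT1G29890). The files list GUX1 and GUX2 as PGSIP1 and PGSIP3. All 10 were listed in every library, and all 10 passed the filter of at least 1 FPKM in at least 1 library, which kept 18858 genes. FPKM count fragments relative to transcript length (in kilobases) and to the mapped fragments of the library, so they may be compared between genes.

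Stems were 20 cm tall and came from plants kept in long days. Segments were counted from the top, with I at 0 to 3 cm, II at 5 to 7 cm and III at 10 to 12 cm. RNA-seq was made of segment II of an atx1 mutant and of 3 segments (I to III) of wild-type Col plants (WT). Each was 1 library, without replicates. The sources used here do not give the allele of atx1, the age of the plants or the number of stems per library. The remaining 6 of the 10 samples, of H3K4me3 chromatin and its input DNA, were not analysed here.

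Xylan is the main hemicellulose of the thick secondary walls of fibres and vessels. It is a chain of xylose made in the Golgi, and its side groups set how it packs against cellulose. GUX enzymes attach glucuronic acid to the chain, GUX1 at evenly spaced xylose residues and GUX2 at closer ones. GXM enzymes then add a methyl group to that glucuronic acid. ESK1 transfers acetyl groups to the xylose residues, and the RWA proteins, which lie in the Golgi membrane, are needed for the acetyl supply of xylan and other wall polymers.

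Because each group was 1 library, no test between groups was possible. Differences are given on the scale of log2(FPKM + 1), which understates those of low genes, and a gene is called higher or lower from a 2-fold difference on, equal to 1 on this scale. They describe these libraries and carry no error. Depth, estimated from the steps of 1 fragment among low values, was about 18900000 to 20800000 fragments per library. The lowest value of any member, 1.59 FPKM, then stands for at most about 37 fragments, and the next lowest, 4.12 FPKM, for about 85.7 fragments per kilobase. ATX1 (AT2G31650), which encodes a methyltransferase for lysine 4 of histone H3, was at 21.76 FPKM in the library labelled atx1 II, against 4.02, 6.09 and 3.54 FPKM in WT I, II and III. The mutant's own gene thus went against the label of that library, although a level over the whole locus does not show whether the transcript was intact. The library is therefore named as labelled, and the directions of its differences depend on the label.

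GUX1 was the most abundant member in every library but WT I. It stood at 40.99 FPKM in the library labelled atx1 II, and at 10.15, 295.88 and 252.14 FPKM in WT I, II and III. GUX2 stood at 5.07 FPKM in the library labelled atx1 II, and at 4.12, 43.01 and 36.74 FPKM in the same wild-type segments. Both glucuronosyltransferase genes were thus high in WT II and WT III and low in the other libraries. GUX1 took 71.1% of their summed FPKM in WT I, and 87.3% in both WT II and WT III. Its share was 89.0% in the library labelled atx1 II, so the make-up of the pair there was near that of the older wild-type segments, although its sum of 46.06 FPKM lay far below the 338.89 FPKM of WT II.

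The 3 methyltransferase genes followed different courses along the stem. GXMT1 was at 16.75 FPKM in the library labelled atx1 II, and at 37.95, 125.01 and 119.25 FPKM in WT I, II and III. GXM3 was at 14.69 FPKM there, and at 5.9, 114.75 and 108.74 FPKM in the wild-type segments. These genes reached like levels in WT II and III, although GXM3 was the lowest of the 3 in WT I. GXM2 was at 1.59 FPKM in the library labelled atx1 II, and at 33.04, 46.27 and 18.27 FPKM in WT I, II and III. It was nearly as abundant as GXMT1 in the youngest segment and the lowest of the 3 in every other library. GXM2 made up 43.0% of the family's sum in WT I, 16.2% in WT II and 7.42% in WT III. It made up 4.81% in the library labelled atx1 II, while GXM3, at 7.67% in WT I and 40.1% in WT II, made up 44.5% there.

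ESK1 was at 15.77 FPKM in the library labelled atx1 II, and at 27.02, 181.71 and 118.28 FPKM in WT I, II and III. It was the second most abundant member in WT II and the seventh in the library labelled atx1 II.

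Of the RWA genes, RWA1, RWA3 and RWA4 had like courses along the wild-type stem and RWA2 another. RWA1 was at 34.23 FPKM in the library labelled atx1 II, and at 18.13, 139.1 and 109.24 FPKM in WT I, II and III. RWA3 was at 18.51 FPKM there, and at 21.92, 97.84 and 98.37 FPKM in the wild-type segments. RWA4 was at 17.11 FPKM there, and at 32.83, 129.45 and 114.22 FPKM in them. All 3 stood higher in WT II than in segment I, RWA1 the most, with a ratio of FPKM of 7.67, and RWA4 the least, with 3.94. RWA2 was at 30.96 FPKM in the library labelled atx1 II, and at 61.38, 51.17 and 65.76 FPKM in WT I, II and III. It was the highest of all 10 members in WT I, with 45.7% of the RWA sum, and the lowest RWA gene in WT II, with 12.3%, and in WT III, with 17.0%. Its share was 30.7% in the library labelled atx1 II, where RWA1 had 34.0%. The RWA sum was 100.81 FPKM there, against 417.56 FPKM in WT II.

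**Figure D1:**
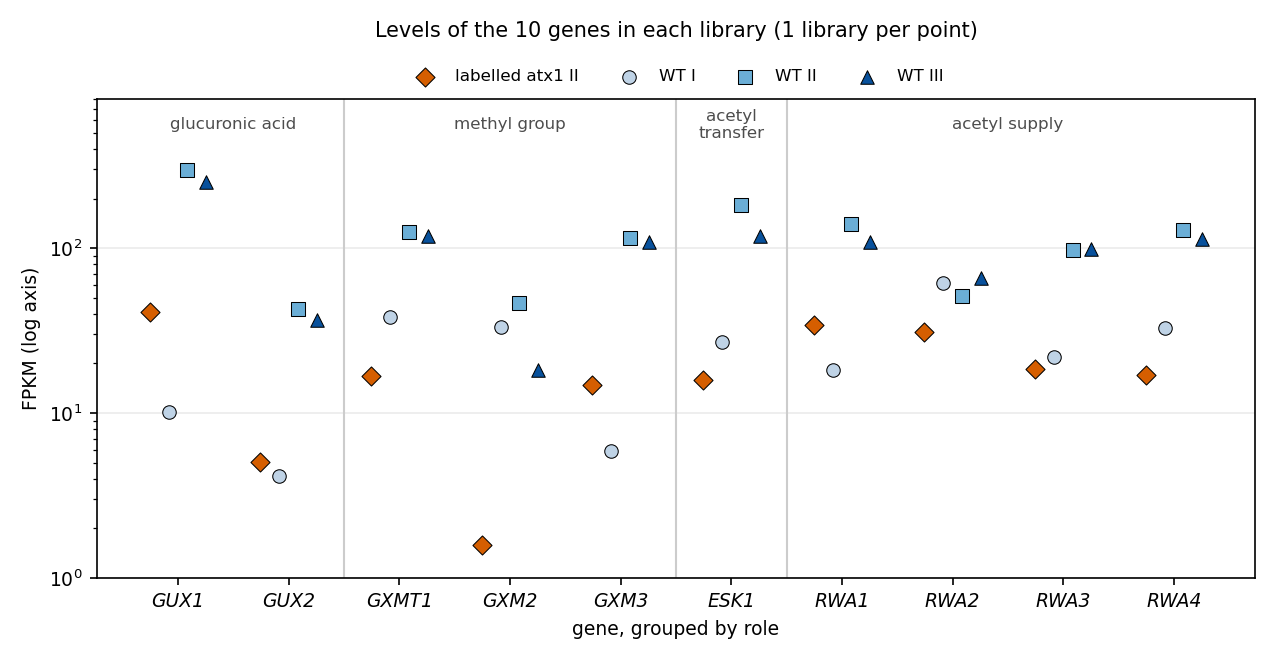
FPKM of each gene (log axis) in the library labelled atx1 II and in WT I, II and III, with 1 point per library, and genes grouped by role. Points of WT II and WT III stand above the rest for every gene but GXM2 and RWA2, and GXM2 is the lowest of the 10 in the library labelled atx1 II at 1.59 FPKM.

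The sources used here do not say to which of several similar genes a shared read was assigned, so values within the GUX, GXM and RWA families could have been traded between members. Sums over the members of a family depend less on that division. They are not free of it, since FPKM are relative to transcript length and relatives outside the set are left out. The RWA sum was 134.26, 417.56 and 387.59 FPKM in WT I, II and III, the GXM sum 76.89, 286.03 and 246.26 FPKM, and the GUX sum 14.27, 338.89 and 288.88 FPKM. Of these sums, that of GUX1 and GUX2 differed most between WT II and WT I, by 23.7 times as a ratio of FPKM. The GXM sum differed by 3.72 times and the RWA sum by 3.11 times. GUX3, which is not in the GUX sum, stood above both genes in WT I, at 16.91 FPKM, and was at 21.77 FPKM in WT II.

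**Figure D2:**
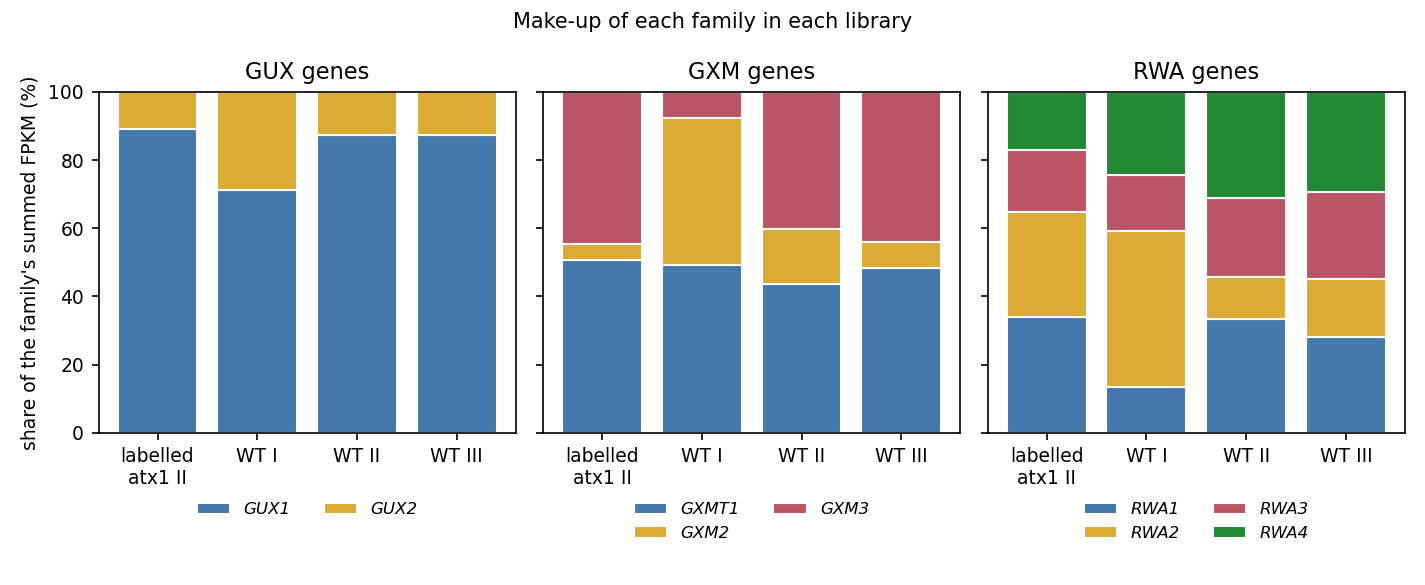
Share of each gene in the summed FPKM of those members of its family that are in the set (stacked bars, % of the sum). Bars stand for the library labelled atx1 II and for WT I, II and III, with 1 library per bar. The GUX sum holds GUX1 and GUX2 only. GXM2 takes 43.0%, 16.2% and 7.42% in WT I, II and III, and RWA2 is largest in WT I, at 45.7%.

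Along the wild-type stem, 8 of the 10 genes were called higher in WT II relative to WT I and 0 lower, and RWA2 and GXM2 lay within 2-fold. Of all 18858 genes kept, 9.88% were called higher and 16.1% lower in this comparison, which is 1863 higher and 3031 lower, and with median-of-ratios scaling 2322 higher and 2482 lower. The median log2 difference of the 10 was 2.41, and that of all genes was -0.13. GUX1 had the largest difference, 4.73, which placed it 28th of all genes on the higher side, and GXM3 followed with 4.07, placed 50th. GUX2 (3.10), RWA1 (2.87), ESK1 (2.71), RWA3 (2.11), RWA4 (1.95) and GXMT1 (1.69) made up the rest. The differences of GXM2, 0.47, and of RWA2, -0.26, were small beside these.

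Between WT III and WT II the set moved little. GXM2 alone was called, with a log2 difference of -1.29, and it was lower in WT III. Over all genes 2.35% were called lower and 2.85% higher, which is 444 lower and 538 higher, and with median-of-ratios scaling 744 lower and 310 higher. The median of the 10 was -0.20 and that of all genes 0.19, and with median-of-ratios scaling they were -0.41 and 0.01. Before that scaling, 8 of the 10 were below 0, where 5625 of all genes were below 0 and 13109 above. After GXM2 came ESK1, at -0.62, and RWA2 had the largest positive difference, at 0.36. GXM2 was also the 1 member that stood lower in WT III than in WT I, at 18.27 against 33.04 FPKM.

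In WT III relative to WT I, 8 of the 10 were called higher and 0 lower, the same 8 as for WT II, with a median of 2.10 beside 0.01 for all genes. Over all genes 12.0% were called higher and 12.4% lower. The largest differences were again those of GUX1 (4.50) and GXM3 (3.99), while RWA2 was at 0.10 and GXM2 at -0.82.

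In the library labelled atx1 II, 9 of the 10 genes were called lower than in WT II and 0 higher, where 8.32% of all genes were called lower and 14.1% higher. With median-of-ratios scaling of the libraries, the counts over all genes turned from 1569 lower and 2665 higher to 2239 lower and 1698 higher, and those of the 10 stayed the same. The median of the 10 was -2.84, and that of all genes was 0.28. GXM2 had the largest difference, -4.19, which was 19th of all genes on the lower side, and ESK1 came next at -3.45, placed 48th. GXM3 (-2.88), GUX2 (-2.86), RWA4 (-2.85), GXMT1 (-2.83) and GUX1 (-2.82) lay within a narrow range, although their levels in WT II spanned 43.01 to 295.88 FPKM. With 0.1 in place of 1 added to the FPKM, the range was wider, from -3.06 (GUX2) to -2.85 (GUX1). On the scale of log2(FPKM + 1), RWA3, at -2.34, and RWA1, at -1.99, differed less. RWA2, at -0.71, was the exception within 2-fold. Set against WT III, all 10 were called lower, RWA2 at -1.06, with a median of -2.65, where 9.03% of all genes were called lower and 9.61% higher. The comparisons with WT II share that library with the comparison along the stem, so their values are not independent of it.

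Where the library labelled atx1 II stood relative to the youngest wild-type segment depended on the gene. GUX1, with a log2 difference from WT I of 1.91, and GXM3, at 1.19, were called higher than in WT I, and GXM2, at -3.72, and GXMT1, at -1.13, were called lower. Over all genes 19.8% were called higher and 17.6% lower, so 2 of 10 in each direction is near that background. RWA1 (0.88), GUX2 (0.25), RWA3 (-0.23), ESK1 (-0.74), RWA4 (-0.90) and RWA2 (-0.96) lay within 2-fold. GUX1, GUX2, GXM3 and RWA1 had their lowest value in WT I, and the other members had it in the library labelled atx1 II. The like share over all genes was not computed, so this split is only a description of the members. The sum over the 10 was 195.67 FPKM in the library labelled atx1 II, against 252.44 FPKM in WT I, 1224.19 FPKM in WT II and 1041.01 FPKM in WT III.

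**Figure D3:**
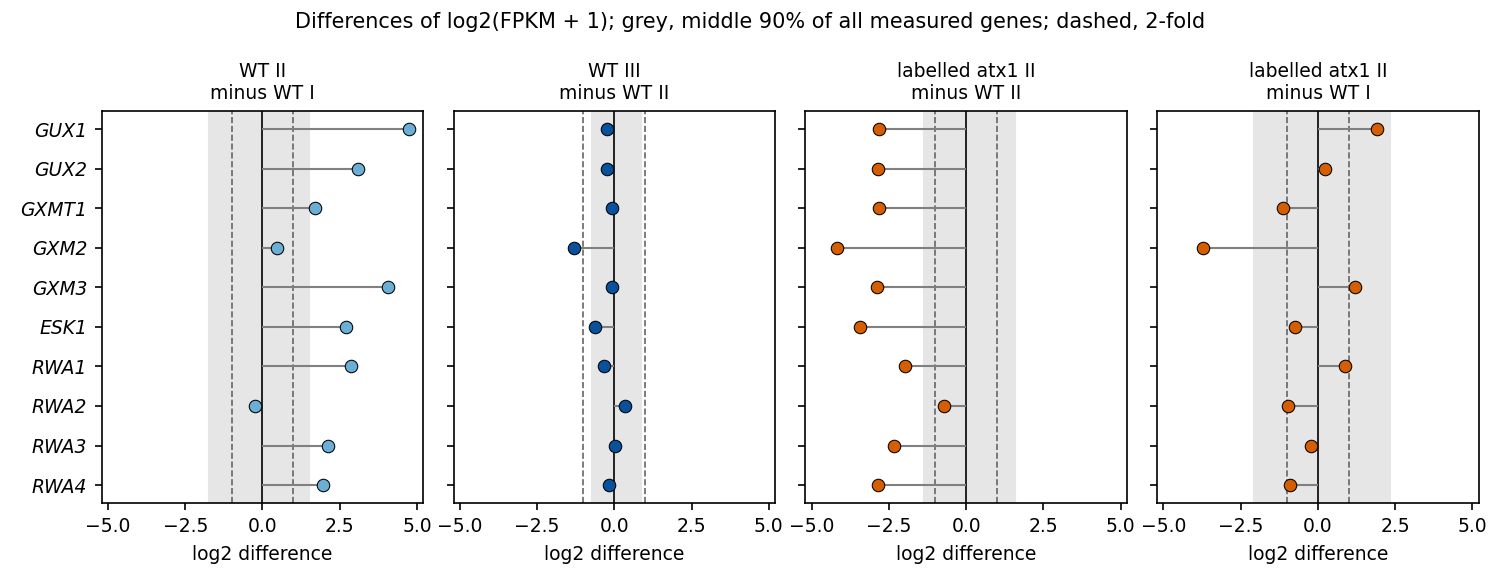
Differences of log2(FPKM + 1) of each gene, with 1 panel per comparison and 1 point per gene. Grey marks the middle 90% of all genes kept and dashed lines mark 2-fold. In the panel of the library labelled atx1 II minus WT II, RWA2 lies in the grey band at -0.71 and the other genes lie below it.

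The order of the members differed between libraries as well as their level. In WT II the levels spanned 43.01 to 295.88 FPKM with a median of 120 FPKM, and in WT III 18.27 to 252.14 FPKM with a median of 109 FPKM. In WT I they spanned 4.12 to 61.38 FPKM with a median of 24.5 FPKM, and there the pair of GUX genes and GXM3 were the lowest 3. In the library labelled atx1 II they spanned 1.59 to 40.99 FPKM with a median of 16.9 FPKM. With 1 library each there is no spread between replicates against which to judge neighbours in these orders, such as GXMT1, ESK1, RWA4, RWA1 and GXM3 in WT III, which lay between 108.74 and 119.25 FPKM.

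Likeness of course was measured as the distance between profiles of log2(FPKM + 1), each centred on its mean over the 4 libraries, so that 0 means the same differences. Among the members the closest pair was GXMT1 and RWA4, at 0.20, and the farthest was GUX1 and GXM2, at 4.51. GXMT1 was in turn closest of all named genes to TBL3, another xylan acetyltransferase gene, at 0.18. GUX1 was closest to the germin-like gene GER2 (0.23), the laccase gene IRX12 (0.29) and SND2 (0.38). GUX2 was closest to the germin-like gene GLP10 (0.05), to TBL33 (0.23) and to the backbone gene IRX9 (0.44). GXM3 was closest to MYB63, a regulator of lignin genes, at 0.11.

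The other members had other neighbours. ESK1 was closest to the laccase gene LAC12 (0.53), and RWA4 came next after it (0.56). RWA1 was closest to arpc2b, for a subunit of an actin-nucleating complex (0.14), and RWA3 to MAT3, for a methionine adenosyltransferase (0.15). For GXM2 the closest was FdC1, a ferredoxin gene, at 0.49, with AGP13, an arabinogalactan protein gene, at 0.51. RWA2 was closest to AOC3, of jasmonate synthesis, at 0.01, followed by RTFL12 and the calmodulin-like gene TCH2, both at 0.08. With only 4 libraries such distances rank genes and show nothing of shared control.

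The other genes of xylan synthesis were taken from lists of known roles. Beside the list counts below stand the shares of all genes kept. For the library labelled atx1 II against WT II, these were 8.32% lower and 14.1% higher. For WT II against WT I, they were 9.88% higher and 16.1% lower. Of 8 backbone genes, 6 were lower in the library labelled atx1 II than in WT II and 0 higher, with a median of -1.92, and for WT II against WT I the counts were 5 higher and 0 lower, with a median of 2.75. IRX9 (21.53 FPKM in the library labelled atx1 II, against 248.13 FPKM in WT II) and IRX15-L (39.01 against 389.11 FPKM) differed most, at -3.47 and -3.29. The homologues IRX9-L and IRX10-L lay within 2-fold in that comparison, at -0.02 and -0.78. Of the 4 genes linked to the reducing end of the chain, all 4 were lower in the library labelled atx1 II than in WT II, with a median of -2.02, IRX8 the most, at -2.37. In WT II against WT I, 3 of them were higher and F8H was lower, at 6.34 against 19.58 FPKM.

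Of the remaining GUX genes only GUX3 passed the filter, and it did not share the course of GUX1 and GUX2. GUX3, which acts on primary wall xylan, was at 21.81 FPKM in the library labelled atx1 II and at 16.91, 21.77 and 23.35 FPKM in WT I, II and III, within 2-fold in every comparison. GUX5 was listed at 0 or at no more than 0.05 FPKM, and GUX4 was not among the genes listed, so it had no value. Relatives of the GXM genes, which belong to a family with a domain of unknown function (DUF579), went several ways. Of 5 such loci outside the set and the backbone list, 4 passed the filter. In the library labelled atx1 II against WT II, AT1G27930 was higher, at 23.47 against 5.29 FPKM, and AT1G67330 reached the threshold exactly, at 1.8 against 0.4 FPKM. AT4G24910 was lower, at 2.97 against 8.07 FPKM.

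Other acetylation genes split. Of 9 listed, 8 passed the filter, and of these 4 were lower in the library labelled atx1 II than in WT II and 0 higher, with a median of -1.03, and for WT II against WT I the counts were 5 higher and 1 lower, with a median of 1.39. TBL33, for an acetyltransferase of the glucuronic acid-bearing xylose residues, was at 19.74 FPKM in the library labelled atx1 II, against 19.75, 179.9 and 154.1 FPKM in WT I, II and III. TBL3 was at 7.08 FPKM there, against 14.61, 47.17 and 48.85 FPKM. TBL35 went the other way along the stem, at 5.41 FPKM in WT II, against 16.16 FPKM in WT I, and lay within 2-fold between the library labelled atx1 II (4.4 FPKM) and WT II.

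Genes that make and carry the sugar nucleotides for xylan differed between the comparisons. Of 14, 7 were lower in the library labelled atx1 II than in WT II and 0 higher, with a median of -1.39, while WT II against WT I gave 4 higher and 1 lower, with a median of 0.07. The UDP-xylose synthase genes UXS3 (71.39 FPKM in the library labelled atx1 II, against 634.56 FPKM in WT II) and UXS6 (19.99 against 151.76 FPKM) were among the 7. So was UDG4, for a UDP-glucose dehydrogenase, which makes UDP-glucuronic acid, the sugar donor of the GUX enzymes (5.52 against 46.94 FPKM). UDG4 was already lower in WT II than the 81.34 FPKM of WT I, within 2-fold. UXS1, AUD1 and UXS4 lay within 2-fold in every comparison.

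**Figure D4:**
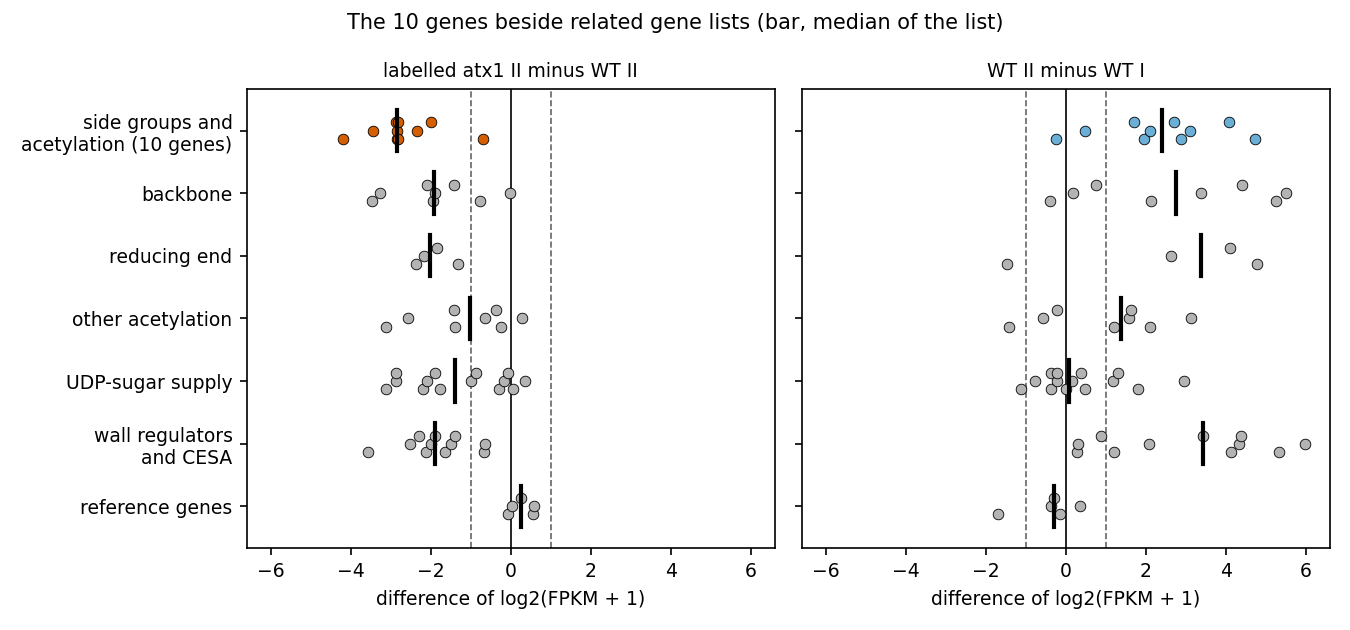
Differences of log2(FPKM + 1) for the 10 genes and for genes of related lists that passed the filter, 1 point per gene and a bar at each list's median, for the library labelled atx1 II minus WT II and for WT II minus WT I. The 10 genes have a median of -2.84 on the left and 2.41 on the right, and the 5 reference genes 0.26 and -0.29. Of the reference genes, AT5G60390 was called lower on the right, at -1.69. The remaining GUX genes and the DUF579 relatives are not drawn. For the library labelled atx1 II minus WT II, GUX3 was at 0.003. The DUF579 relatives that passed the filter had a median of 0.66, with 2 higher and 1 lower.

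Markers of tissues and states moved between the same libraries, and their part in the results above was not tested. Of 11 regulators and cellulose synthases of secondary walls, 9 were lower in the library labelled atx1 II than in WT II and 0 higher, with a median of -1.90. The regulators SND1, at 59.26 against 95.81 FPKM, and NST1, at 28.19 against 44.75 FPKM, lay within 2-fold. The summed level of the 11 was 505.34 FPKM in the library labelled atx1 II, against 133.58, 1839.69 and 2132.99 FPKM in WT I, II and III. Against WT I, 6 of the 11 were called higher and 2 lower in the library labelled atx1 II. Over all genes 19.8% were called higher and 17.6% lower in that comparison, so the 2 lower are near that background. The cellulose synthase CESA4 was among the 6, at 147.48 against 26.67 FPKM, while the regulator VND6 was lower, at 1.94 against 9.47 FPKM. In bulk tissue, fewer wall-forming cells and less RNA per cell cannot be told apart. The sum of 3 phloem markers was 203.15 FPKM in the library labelled atx1 II, against 151.86, 256.64 and 266.74 FPKM in WT I, II and III, with 0 of 3 called against WT II. The sum of 3 epidermal markers was 250.51 FPKM, against 495.05, 418.27 and 426.6 FPKM, with 0 of 3 called against WT II. CER6 made up most of that sum, at 244.57 FPKM in the library labelled atx1 II against 413.92 FPKM in WT II, while ATML1 was at 5.94 against 4.31 FPKM, and PDF1 of that list was listed at 0 or 0.04 FPKM outside WT I. The floral genes AG, AP3 and PI were listed at 0 in WT II and III and did not pass 1.12 FPKM in any library.

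Genes of daily and stress states differed as well. The morning clock genes CCA1 and LHY summed to 229.39 FPKM in the library labelled atx1 II, against 2.53, 5.71 and 3.26 FPKM in WT I, II and III. The 3 heat genes HSFA2, HSP17.4 and HSP101 summed to 3.93 FPKM, against 251.43, 190.16 and 367.21 FPKM. The 4 defence genes were all called higher in the library labelled atx1 II than in WT II, and 3 of them were called higher than in WT I and 3 than in WT III. Their sum of 452.38 FPKM, against 659.95, 54.7 and 66.1 FPKM in WT I, II and III, lay below that of WT I, with VSP1 at 189.78 FPKM, against 658.13 FPKM in WT I. Of the 4, PR1 and PDF1.2, at 3.66 and 144.11 FPKM, were listed at 0 in every wild-type library. The 5 reference genes summed to 1372.61 FPKM, against 2333.26, 1077.83 and 1234.39 FPKM, and 0 of them were called against WT II. These states and the genotype label cannot be told apart as sources of difference, since each rests on the same single library.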

How the data were processed

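RNA-seq libraries of the stem were deposited as 1 FPKM value per gene and library, given by the authors to 2 decimals, per the file headers. Trimmomatic, HISAT, Bowtie2 and RSEM and the build TAIR10 are named in the submitters' processing notes without versions or roles; filters and strand are not given in the sources used here. No count test was used, since the FPKM are not counts. The FPKM were compared as log2(FPKM + 1) with Python 3.11.15 and numpy 2.4.6, over genes with at least 1 FPKM in at least 1 of the 4 libraries, and a 2-fold difference counted. The calculation was tested on simulated data with little noise and planted differences above the threshold. That checks the arithmetic only, and not low genes or the spread between stems.

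Names came from the files and the RefSeq table of assembly TAIR10.1, which matched 23238 of 23615 IDs. Depth was fitted to low values (above 0 and under 1 FPKM) of short genes, 250 to 900 bp long, using RefSeq gene spans less 150 bp; 70.3% to 71.1% of values lay within 0.15 of a whole fragment, where evenly spread values would give 30%, a low yardstick because the step was fitted to the same values. Intervals on single values are not given.

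The members and gene lists were chosen with earlier results of these data known. Named were all 10 members, the list members with the largest differences or exceptions in direction, and the 3 symbol-bearing genes nearest in profile to each member among those with at least 10 FPKM in a library, of which the closest are printed; levels of markers and further list members were chosen after their values were seen. Alternatives were a pseudocount of 0.1, median-of-ratios scaling, a filter of 10 FPKM or none, a 1.5-fold threshold, and WT III in place of WT II.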

Additional observations from a re-analysis of the deposited data

How the results depend on the processing

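The counts of members called were compared under the alternatives that apply to each comparison. With a 1.5-fold threshold the count went to 2 (GXM2 and ESK1 lower) between WT III and WT II. Of all 18858 genes kept, 1350 were then lower and 2597 higher. Between the library labelled atx1 II and WT I the count went to 8 (3 higher, 5 lower). Of all genes kept, 5955 were then higher and 5213 lower. The lower threshold itself admits the added genes. Every other count of members stayed within 1.5 times of the reported one. Of 260 single-gene values under alternatives, 251 stayed on their side of the threshold, 9 passed it newly and 0 reversed a call. The filter settings cannot change a single-gene value, and a lower threshold can only add calls. Much of that count was therefore fixed in advance and is no measure of stability. Median-of-ratios scaling moved the median of all genes from 0.28 to 0.03 for the library labelled atx1 II minus WT II, from 0.19 to 0.01 for WT III minus WT II and from -0.13 to 0.02 for WT II minus WT I; the medians of the 10 members were then -3.11, -0.41 and 2.59. Under it RWA3 turned to -0.20 between WT III and WT II, and RWA2 passed 2-fold against WT I, at -1.06 in the library labelled atx1 II. No paired analysis was possible because each group holds 1 library and the labels give no replicate numbers. Among the members, GXM2 in the library labelled atx1 II had the fewest estimated fragments, at most about 37. Genes of other lists had lower values, such as F8H at 0.62 FPKM in that library. No sampling error was computed, and without replicates the spread between stems is unknown.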
